A study of Mus musculus with 12 samples.

Results

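Lymphoid follicles are compact clusters in which B cells gather around a stroma that secretes chemokines, and 9 genes that mark or organise them were followed in mouse lung: Ms4a1, Cd79a, Cr2, Fcer2a, Cxcl13, Cxcr5, Ccl19, Ccl21a and Ltb. They were taken by symbol from a table of 49585 genes, in which all 9 of 9 were present. The libraries came from the lungs of mice lacking the G protein signalling regulator Rgs4 (KO) and of wild-type mice (WT), both labelled as strain Balb/cJ. Exposure was to the mould Aspergillus fumigatus (Af) or, as control, to phosphate-buffered saline (PBS), and the study asked what part Rgs4 plays in asthma. Each of the 4 groups held 3 libraries of poly-A RNA, named here KO_Af 12 to 14, KO_PBS 9 to 11, WT_Af 18 to 20 and WT_PBS 15 to 17. The sources used here do not give the form, dose and timing of Af, the age of the mice, how Rgs4 was deleted or whether each library came from 1 mouse. Library totals ran from 20708884 to 30229446 reads.

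B cells carry CD20 (Ms4a1) and the signalling chain of their antigen receptor (Cd79a), together with complement receptor 2 (Cr2), the low-affinity IgE receptor CD23 (Fcer2a) and the chemokine receptor CXCR5. In lymphoid organs stromal cells secrete CXCL13, which draws CXCR5-bearing B cells into follicles, while CCL19 and CCL21 draw CCR7-bearing T cells and dendritic cells into the neighbouring zone. Lymphotoxin, a membrane complex that contains the product of Ltb and is made by lymphocytes, acts on stromal cells through the non-canonical NF-kB proteins NFKB2 and RELB, and in mice it maintains these chemokines. Clusters of this kind also form in inflamed lungs.

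The sequences just upstream of 3 members are shown because they are the chemokine that responded most to Af, the lymphotoxin gene and the chemokine with the highest level under PBS, and because the mouse Cxcl13 and Ltb promoters are known to hold NF-kB sites. All are from RefSeq, build GRCm38.p6, and end before the annotated start. Capitals mark a match to GGGAGATTT, a site of the type bound by non-canonical NF-kB, or to GGACTTTCC, a canonical NF-kB site, on either strand, and these letters were chosen with the sequences in view. The Cxcl13 stretch (chr5:95956689-95956938, plus strand) held GGGAGATTT on the gene's strand, beginning 114 bases before the start. The Ltb stretch (chr17:35194257-35194438, plus strand) held GGACTTTCC on the opposite strand, printed here as its complement, 87 bases before the RefSeq start. The Ccl21a stretch (chr4:42773994-42774241, minus strand) held neither.
Cxcl13: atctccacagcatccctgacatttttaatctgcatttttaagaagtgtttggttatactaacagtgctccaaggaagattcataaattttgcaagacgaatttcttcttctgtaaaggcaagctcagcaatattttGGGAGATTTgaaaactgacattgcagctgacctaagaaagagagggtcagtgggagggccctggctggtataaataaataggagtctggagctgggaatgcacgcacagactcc
Ltb: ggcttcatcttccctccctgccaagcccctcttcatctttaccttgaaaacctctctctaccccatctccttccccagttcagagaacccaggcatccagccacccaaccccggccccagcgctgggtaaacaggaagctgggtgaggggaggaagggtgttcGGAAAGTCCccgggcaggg
Ccl21a: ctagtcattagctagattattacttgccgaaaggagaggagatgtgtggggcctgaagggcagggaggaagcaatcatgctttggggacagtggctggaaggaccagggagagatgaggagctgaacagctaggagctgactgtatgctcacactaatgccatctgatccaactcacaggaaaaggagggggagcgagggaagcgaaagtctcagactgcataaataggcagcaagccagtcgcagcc
RefSeq windows were matched for 7 of the 9 members, as 9 windows in all, and Ms4a1 and Cxcr5 were not among them. Of those 9 windows 2 held either motif in the 250 bases before the start. Over all 32851 windows of that length 93 held GGGAGATTT and 93 held GGACTTTCC, 0.283% in each case. Because the letters were chosen with the sequences in view, the 2 matches among members cannot be weighed against that share.

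Levels are given as deposited, in CPM (read counts scaled to the library's depth) after TMM adjustment between libraries, that is by a trimmed mean of log ratios. Differences are log2 fold changes of CPM + 0.5 with standard errors, from 1 limma fit of the 4 groups, and a gene was called at a Benjamini-Hochberg adjusted p under 0.05 over the 16126 genes that reached 1 CPM in 3 or more libraries. All 9 members passed that filter. P-values here reflect only how far these libraries spread. Library numbers coincide with genotype and, within each genotype, PBS numbers lie below Af numbers, so genotype and exposure cannot be told apart from anything else that follows those numbers. Rgs4 itself was at 1.15 ± 0.311 CPM in KO_Af, 0.892 ± 0.282 CPM in KO_PBS, 45.1 ± 3.27 CPM in WT_Af and 22.9 ± 2.63 CPM in WT_PBS (SD, n = 3 each), as the labels say.

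WT_PBS 15 stood apart for B cell transcripts, and also for markers of some other cell types. Among 23 other B cell genes, a list of receptors, signalling adaptors and transcription factors such as Cd79b, Pax5 and Ebf1, it was the lowest of all 12 libraries for 20. Its level was a median of 45.3% of the mean of WT_PBS 16 and 17 over those genes (range 21.9% to 100.9%), while over all tested genes the median difference was 0.01 on the log2 scale. Summed fibroblast markers were at 5394.9 CPM in WT_PBS 15, against 2576.3 and 2620.8 CPM in WT_PBS 16 and 17. Macrophage markers were at 7240.1 CPM, against 5138.2 and 4318.6 CPM, and T cell markers at 135.1 CPM, against 255.7 and 212.5 CPM. Lung epithelium markers lay closer, at 35944 CPM, against 33076 and 30336 CPM. WT_PBS 16 stood apart in another way, with the high endothelial venule gene Glycam1 at 102.8 CPM, against 10.2 CPM in the next library. WT_PBS 17 had the highest Cxcl13 of the PBS libraries. KO_Af 12 had lung epithelium markers at 32702 CPM, against 17010 and 21275 CPM in KO_Af 13 and 14. Its macrophage markers were at 4982.8 CPM, against 3891.1 and 3563.5 CPM. Values without 1 or more of these libraries are therefore given beside the results that they change, and a difference in bulk tissue cannot tell fewer cells of a type from less RNA per cell.

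**Figure D1:**
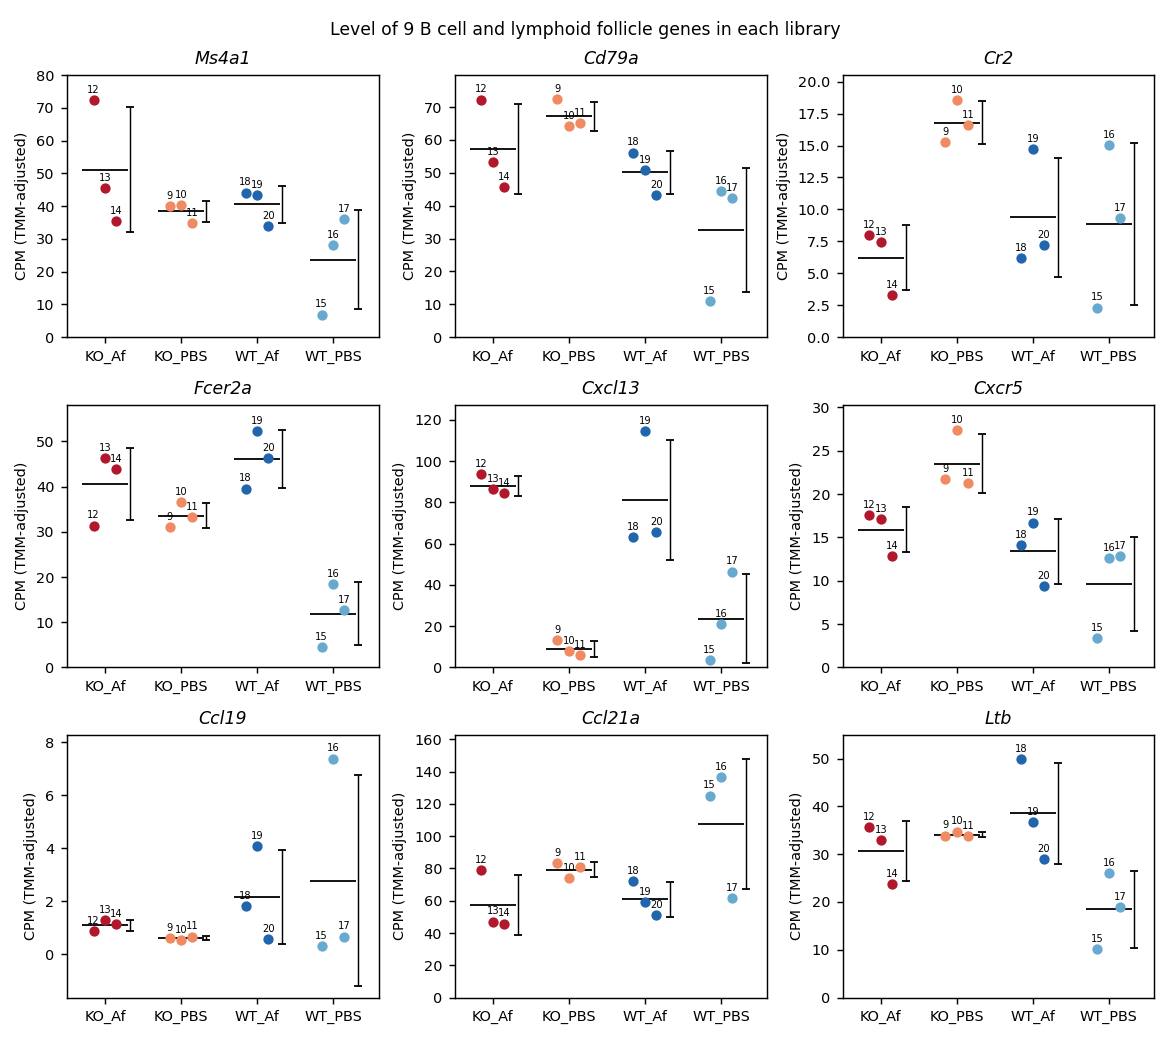
CPM (TMM-adjusted) of each member in each library, marked by its number, in KO_Af, KO_PBS, WT_Af and WT_PBS; bars are means and whiskers 1 SD (n = 3). Cxcl13 stood at 63.2 CPM or more in all 6 Af libraries and at 46.4 CPM or less in all 6 PBS libraries, and WT_PBS 15 was the lowest library for Ms4a1, Cd79a, Cr2, Fcer2a, Cxcl13, Cxcr5, Ccl19 and Ltb.

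Per kilobase of exon (GENCODE M21), the level of Cxcl13 in the KO_Af group averaged 76.7 ± 4.25 CPM and that of Ccl21a 65.9 ± 21.7 CPM, and the 2 overlapped between libraries. Below them in KO_Af came the levels per kilobase of Cd79a at 39.2, Ltb at 20.3, Fcer2a at 13.1, Ms4a1 at 8.26, Cxcr5 at 4.76, Ccl19 at 1.26 and Cr2 at 0.769 CPM, and of these neighbours Fcer2a and Ms4a1 overlapped. In the WT_Af group the order was the same, with Cxcl13 at 70.5 and Ccl21a at 70.0 CPM per kilobase, again overlapping. Under PBS Ccl21a led instead, at 91.2 ± 5.46 CPM per kilobase in KO_PBS and 123.9 ± 46.3 CPM in WT_PBS, where every library lay above every library of every other member. Cxcl13 stood at 7.78 ± 3.26 CPM per kilobase in KO_PBS and 20.6 ± 18.7 CPM in WT_PBS. Cr2 in KO_Af, WT_Af and WT_PBS, and Ccl19 in KO_PBS, had the lowest level of the 9.

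Exposure to Af was compared with PBS within each genotype. In KO lungs 2 of the 9 members were called, Cxcl13 higher and Cr2 lower, where the fit called 57.9% of all genes tested (28.7% higher and 29.2% lower). In WT lungs 4 of the 9 were called, with Fcer2a, Cxcl13 and Ltb higher and Ccl21a lower, where it called 51.8% of all genes (26.2% higher and 25.6% lower). Both counts of members lay below the share of all genes. The median log2 change of the 9 was -0.17 in KO and 0.84 in WT, and over all genes tested it was -0.02 in each. Groups did not overlap for 4 members in KO (Cr2, Cxcl13, Cxcr5 and Ccl19), against 62.9% of all genes, and for 3 members in WT (Fcer2a, Cxcl13 and Ltb), against 65.4% of all genes.

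Cxcl13 (ENSMUSG00000023078, chr5:95956951-95961068, plus strand, GRCm38) showed the largest change of the 9 in KO, and in WT with all libraries in the fit. It stood at 93.7, 86.4 and 84.4 CPM in KO_Af, against 13.1, 7.88 and 5.85 CPM in KO_PBS. In WT it stood at 63.2, 114.5 and 65.6 CPM in WT_Af, against 3.64, 21 and 46.4 CPM in WT_PBS. The exposed and control libraries were apart in both genotypes, and the WT_PBS libraries differed widely among themselves. The rise was 9.86-fold in KO (log2 3.30 ± 0.66, limma adjusted p = 0.00122) and 4.87-fold in WT (log2 2.29 ± 0.66, adjusted p = 0.0127). In WT the log2 value was 1.31 without WT_PBS 15 (adjusted p = 0.0154) and 3.06 without WT_PBS 17 (adjusted p = 0.00147), and without both WT_PBS 15 and 16 it was 0.74 with the call lost (adjusted p = 0.182). Without WT_PBS 15, and without WT_PBS 15 and 16, Fcer2a had the larger change in WT (log2 1.55 and 1.80).

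Cxcr5, the receptor for CXCL13 (ENSMUSG00000047880, chr9:44511787-44561877, minus strand), did not follow its ligand. Its level was 17.6, 17.1 and 12.9 CPM in KO_Af, against 21.7, 27.4 and 21.3 CPM in KO_PBS, so that every exposed KO library lay below every control one. WT_Af libraries had 14.1, 16.7 and 9.36 CPM, against 3.35, 12.6 and 12.8 CPM in WT_PBS, and those groups overlapped. Neither difference was called, at log2 -0.55 ± 0.40 in KO (95% interval -1.42 to 0.31, limma adjusted p = 0.249) and log2 0.63 ± 0.40 in WT (interval -0.24 to 1.49, adjusted p = 0.204). The WT value was log2 0.03 without WT_PBS 15 and 0.02 without WT_PBS 15 and 16. A fit of the KO groups alone called the KO difference (adjusted p = 0.0219). Cxcr5 overlaps Bcl9l on the other strand, which ran from 40.6 to 128.8 CPM, and the sources used here do not say whether strand was used in counting.

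Fcer2a, which encodes the low-affinity IgE receptor CD23 (ENSMUSG00000005540, chr8:3681737-3694175, minus strand), changed most of the B cell receptors in WT. It stood at 39.6, 52.4 and 46.2 CPM in WT_Af, against 4.55, 18.4 and 12.8 CPM in WT_PBS, 4.28-fold higher (log2 2.10 ± 0.36, limma adjusted p = 5.98e-04). The call held without WT_PBS 15 at log2 1.55 (adjusted p = 1.38e-04). In KO it stood at 31.4, 46.3 and 43.8 CPM in KO_Af, against 31.0, 36.5 and 33.3 CPM in KO_PBS, and the groups overlapped (log2 0.25 ± 0.36, adjusted p = 0.574). All KO_PBS libraries were above all WT_PBS libraries.

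Cr2, a complement receptor of B cells and follicular dendritic cells (ENSMUSG00000026616, chr1:195136811-195176716, minus strand, the chromosome that also holds Rgs4), was the only member called lower in KO. Its values were 7.98, 7.44 and 3.28 CPM in KO_Af, against 15.2, 18.6 and 16.6 CPM in KO_PBS, a fall of log2 -1.44 ± 0.54 (limma adjusted p = 0.0371) with no overlap. WT_Af libraries held 6.19, 14.7 and 7.19 CPM and WT_PBS libraries 2.32, 15.0 and 9.31 CPM, a log2 difference of 0.29 ± 0.54 that was not called (adjusted p = 0.672) and was -0.42 without WT_PBS 15 and 0.81 without WT_PBS 16. The KO call was lost without KO_Af 14 (log2 -1.07, adjusted p = 0.137) and without any 1 of KO_PBS 9, 10 and 11 (log2 -1.37 to -1.51, adjusted p = 0.0683 to 0.0924).

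Ltb, the lymphotoxin beta gene (ENSMUSG00000024399, chr17:35194439-35196320, plus strand), was called in WT and not in KO, and the difference between these responses, given with the interaction, was not called. It stood at 49.9, 36.8 and 28.9 CPM in WT_Af, against 10.2, 26.1 and 19.0 CPM in WT_PBS, 2.15-fold higher with no overlap (log2 1.11 ± 0.29, limma adjusted p = 0.00759). KO_Af libraries held 35.6, 32.95 and 23.7 CPM and KO_PBS libraries 33.9, 34.7 and 33.7 CPM, and these overlapped (log2 -0.17 ± 0.29, adjusted p = 0.636). Without WT_PBS 15 the WT value was log2 0.74 (adjusted p = 0.0208). T cells also make lymphotoxin, and the summed level of 13 T cell markers ran from 269.6 to 285.6 CPM in KO_Af, from 327.9 to 432.9 CPM in KO_PBS, from 274.0 to 800.9 CPM in WT_Af, where WT_Af 18 was highest, and from 135.1 to 255.7 CPM in WT_PBS, where WT_PBS 15 was lowest. The T cell receptor gene Cd3e was at 0 in none of the 12 libraries. The part of T cells in the Ltb difference was not tested.

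Ms4a1 and Cd79a, the general B cell markers, were not called in either genotype. Ms4a1 (ENSMUSG00000024673, chr19:11249675-11266241, minus strand) stood at 72.4, 45.6 and 35.4 CPM in KO_Af, against 40.1, 40.4 and 34.7 CPM in KO_PBS, and at 44.1, 43.5 and 34.0 CPM in WT_Af, against 6.91, 28.1 and 36.0 CPM in WT_PBS. Cd79a (ENSMUSG00000003379, chr7:24897381-24902197, plus strand) stood at 72.3, 53.4 and 45.7 CPM in KO_Af, against 72.3, 64.2 and 65.2 CPM in KO_PBS, and at 56.2, 50.9 and 43.3 CPM in WT_Af, against 10.9, 44.5 and 42.3 CPM in WT_PBS. In both genes WT_PBS 15 was far below the other WT_PBS libraries and KO_Af 12 was above the other KO_Af libraries. The WT changes were log2 1.04 for Ms4a1 (limma adjusted p = 0.0798) and 0.84 for Cd79a (adjusted p = 0.101), and they were 0.33 and 0.20 without WT_PBS 15. Without WT_PBS 17 instead, both were called, at log2 1.49 for Ms4a1 (adjusted p = 0.0215) and 1.15 for Cd79a (adjusted p = 0.0480), and without WT_PBS 16 Cd79a was called at 1.19 (adjusted p = 0.0390).

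Among the CCR7 ligands, Ccl21a (ENSMUSG00000094686, chr4:42772860-42773993, minus strand) had the higher level. It stood at 79.2, 47.1 and 45.8 CPM in KO_Af, against 83.3, 74.1 and 80.7 CPM in KO_PBS, and at 72.4, 59.2 and 51.1 CPM in WT_Af, against 125, 136.5 and 61.7 CPM in WT_PBS. Groups overlapped in both genotypes, through KO_Af 12 in KO and WT_PBS 17 in WT. The WT fall was called at log2 -0.75 ± 0.28 (limma adjusted p = 0.0408) and the KO difference was not, at log2 -0.51 ± 0.28 (adjusted p = 0.137). The WT call was lost without WT_PBS 15, WT_PBS 16, WT_Af 19 or WT_Af 20 (log2 -0.54 to -0.74, adjusted p = 0.0899 to 0.157), and without both WT_PBS 15 and 16 the value was log2 -0.03 (adjusted p = 0.939). It was also lost with no filter, no trend or the WT groups alone (adjusted p = 0.0516 to 0.0740). Without KO_Af 12 the KO fall was called at log2 -0.76 (adjusted p = 0.0339).

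The table has near-identical copies of Ccl21a. Ccl21b and Gm10591 were 99.5% identical to it over 402 bases, Gm13304 99.4% over 837 and Gm21541 99.3% over 870. These copies ran from 0 to 0.747 CPM, and how shared reads were divided among them decides the split. The Ccl21a values may therefore include reads of the copies, and the size of that part is not known.

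Ccl19 (ENSMUSG00000071005, chr4:42754525-42756577, minus strand) was near the lower limit of the table. It stood at 0.865, 1.29 and 1.12 CPM in KO_Af, against 0.604, 0.520 and 0.659 CPM in KO_PBS, which is 22 to 29 reads against 14 to 17 reads per library. In WT it stood at 1.82, 4.06 and 0.562 CPM in WT_Af, against 0.290, 7.38 and 0.661 CPM in WT_PBS. Libraries of 1 group differed more than the groups did in WT, and neither change was called (log2 0.53 ± 0.72 in KO, limma adjusted p = 0.542, and log2 0.21 ± 0.72 in WT, adjusted p = 0.819). The WT value was log2 -0.43 without WT_PBS 15 and 1.23 without WT_PBS 16. The 2 libraries with the highest Ccl19, WT_PBS 16 and WT_Af 19, were also the 2 highest in Glycam1, at 102.8 and 10.2 CPM. The part of lymphoid tissue in those libraries was not tested.

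**Figure D2:**
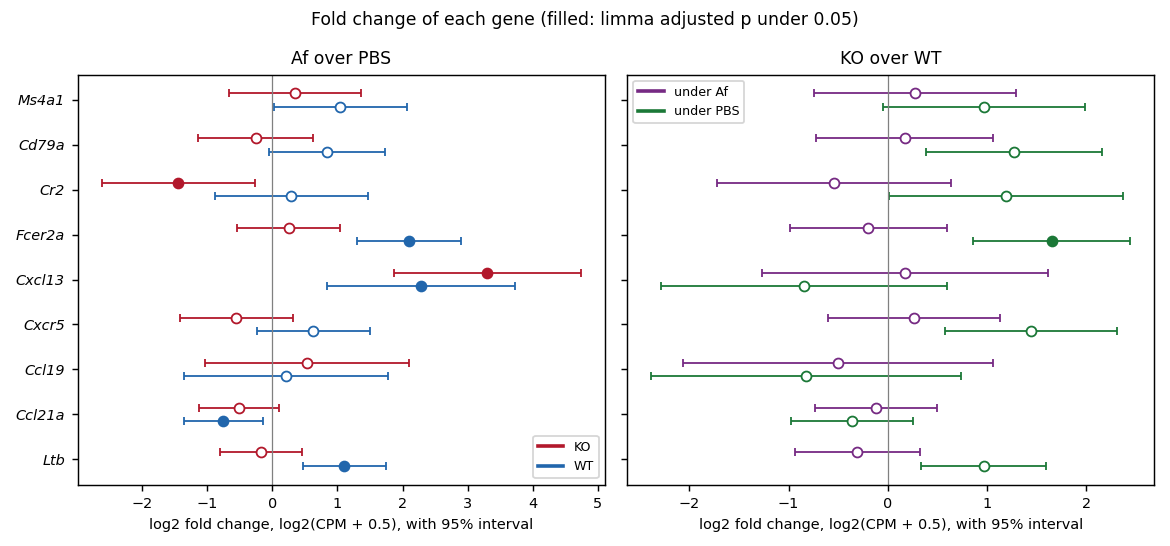
Log2 fold change of each member with its 95% interval, for Af over PBS in KO and WT (left) and for KO over WT under Af and under PBS (right); filled points had a limma adjusted p under 0.05. Cxcl13 was called higher under Af in both genotypes, Fcer2a was the one member called between genotypes under PBS, and none was called between genotypes under Af.

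Loss of Rgs4 was then compared with WT under each exposure. Under PBS 1 of the 9 members was called, Fcer2a, against 3.55% of all genes tested (1.9% higher). Fcer2a averaged 33.6 ± 2.78 CPM in KO_PBS and 11.9 ± 6.96 CPM in WT_PBS (SD, n = 3 each), 3.15-fold higher in KO (log2 1.65 ± 0.36, limma adjusted p = 0.0318). The call held without WT_PBS 15 at log2 1.10 (adjusted p = 0.0215), where 2.06% of all genes were called, and was lost without any 1 of KO_PBS 9, 10 and 11 (log2 1.59 to 1.71, adjusted p = 0.0887 to 0.124) and without WT_PBS 17 (log2 1.80, adjusted p = 0.0619).

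KO_PBS and WT_PBS libraries did not overlap for 5 members, Cd79a, Cr2, Fcer2a, Cxcr5 and Ltb, all higher in KO_PBS, against 33.1% of all genes. Cd79a averaged 67.2 ± 4.44 CPM in KO_PBS and 32.6 ± 18.8 CPM in WT_PBS (log2 1.27 ± 0.41, limma adjusted p = 0.119). Cxcr5 averaged 23.5 ± 3.40 CPM in KO_PBS and 9.59 ± 5.41 CPM in WT_PBS (log2 1.44 ± 0.40, adjusted p = 0.0723). Ltb averaged 34.1 ± 0.527 CPM in KO_PBS and 18.4 ± 7.98 CPM in WT_PBS (log2 0.97 ± 0.29, adjusted p = 0.0958). These 5 had an unadjusted p under 0.05, edgeR called 1 member and DESeq2 called 3, the added ones being Cxcr5 (adjusted p = 0.0158) and Ltb (adjusted p = 0.0395). Over all genes limma called 573, edgeR 566 and DESeq2 1216. The share of all genes at an unadjusted p under 0.05 is not given here for any comparison. Without WT_PBS 15 the log2 differences were 0.62 for Cd79a, 0.85 for Cxcr5 and 0.60 for Ltb, none of them called.

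Ms4a1 was at log2 0.97 ± 0.47 in KO_PBS over WT_PBS with overlapping groups (limma adjusted p = 0.317), and at 0.26 without WT_PBS 15. The chemokine genes stood at log2 -0.84 ± 0.66 for Cxcl13, -0.82 ± 0.72 for Ccl19 and -0.36 ± 0.28 for Ccl21a, none called (adjusted p = 0.572 to 0.621). Cxcl13 was at -0.07 without WT_PBS 17 and was called lower in KO_PBS without WT_PBS 15 (log2 -1.82, adjusted p = 0.0384). Ccl19 was at 0.19 without WT_PBS 16, and Ccl21a at 0.36 without WT_PBS 15 and 16. In the same comparison Ltb was called higher without WT_PBS 16 (log2 1.26, adjusted p = 0.0384).

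Under Af no member was called between genotypes, where 0.0868% of all genes were called, and no member had an unadjusted p under 0.05 or a call by edgeR or DESeq2. Log2 differences of KO_Af over WT_Af ran from -0.54 for Cr2 (95% interval -1.72 to 0.64) to 0.28 for Ms4a1 (interval -0.74 to 1.297), and all 9 members had overlapping groups, where 13.8% of all genes had none. Cxcl13 averaged 88.2 ± 4.88 CPM in KO_Af and 81.1 ± 29.0 CPM in WT_Af, and Fcer2a averaged 40.5 ± 7.99 CPM in KO_Af and 46.1 ± 6.39 CPM in WT_Af. Averaged over both exposures no member was called (2.16% of all genes, 3 members at an unadjusted p under 0.05, and none by edgeR or DESeq2).

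Whether the response to Af differed between genotypes was asked of the interaction, KO change minus WT change. No member was called by limma, where 0.0062% of all genes were, and 3 had an unadjusted p under 0.05: Fcer2a at log2 -1.85, Cr2 at -1.74 and Ltb at -1.27. Without WT_PBS 15 these were -1.30, -1.02 and -0.91. None was called by edgeR. DESeq2 called 1, Fcer2a (log2 -1.68, adjusted p = 0.0341), where it called 2.25% of all genes. The 2 responses share no libraries, so this value stands on all 12.

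The other B cell genes gave the frame for these values. In KO 2 of the 23 rose and 8 fell under Af (median log2 -0.24), and in WT 11 rose and 3 fell (median 0.67), against 57.9% and 51.8% of all genes called. Without WT_PBS 15 the WT counts were 8 and 3, with a median of 0.31 and 46.9% of all genes called. They were 15 and 2 without WT_PBS 16, and 12 and 3 without WT_PBS 17. Without WT_Af 18, 19 or 20 they were 6 and 3, 5 and 3, or 10 and 2. Over all genes, calls went from 8361 to 7069 and 7121 without WT_PBS 16 and 17. Without WT_Af 18, 19 and 20 they were 7392, 7122 and 7189. Vpreb3, a relative of the surrogate light chain of early B cells, fell in KO (log2 -1.76) and in WT (-1.66), and Ebf1, a transcription factor of the B lineage that stromal cells also express, fell in KO (-0.98) and in WT (-0.60). Blnk, an adaptor of the B cell receptor, rose in KO (1.08) and WT (1.32), as did the Fc receptor-like gene Fcrl5 (1.25 and 1.33).

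Between genotypes under PBS 7 of the 23 B cell genes were higher in KO and 0 lower, where 1.9% of all genes were higher (median log2 0.84, against 0.01 over all genes). Of the 23, 18 had an unadjusted p under 0.05, a count with no share of all genes to set beside it. EdgeR called 5 of the 23 and DESeq2 called 12, where edgeR called 303 of all genes higher and DESeq2 612. Cd180, a Toll-like receptor homologue of B cells, stood at log2 0.98 ± 0.16 (limma adjusted p = 0.00957), and H2-Ob, a chain of the class II modulator of B cells, at 1.21 ± 0.21 (adjusted p = 0.0110). The count was 6 without WT_PBS 15 (median 0.49), 10 without WT_PBS 16 and 4 without WT_PBS 17. It was 2, 1 and 2 without KO_PBS 9, 10 and 11. Calls over all genes also fell in these fits. With all libraries 306 genes were higher in KO, and 146, 246 and 119 without WT_PBS 15, 16 and 17. Without KO_PBS 9, 10 and 11 they were 87, 52 and 79. Without both WT_PBS 15 and 16 the median of the 23 was 0.64. Under Af none of the 23 was called (1 at an unadjusted p under 0.05, and 0 by edgeR and by DESeq2). Summed over the list the level was 433.8 to 497.4 CPM in KO_Af, 535.9 to 574.5 CPM in KO_PBS, 420.0 to 492.7 CPM in WT_Af and 199.5 to 411.7 CPM in WT_PBS.

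**Figure D3:**
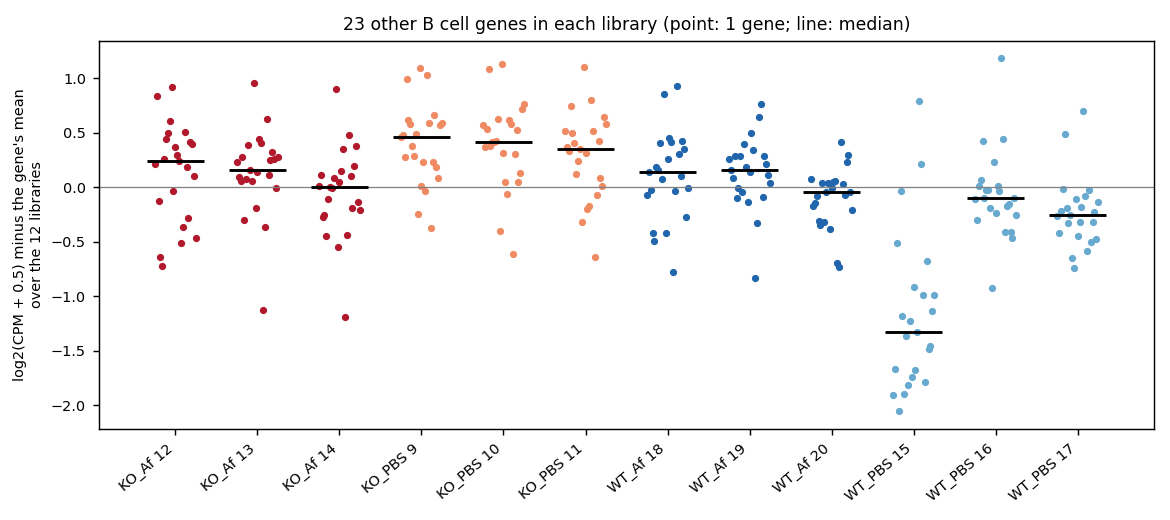
Each point is 1 of 23 other B cell genes in 1 library, as log2(CPM + 0.5) minus that gene's mean over the 12 libraries, with black lines at the library's median; libraries run from KO_Af and KO_PBS to WT_Af and WT_PBS. WT_PBS 15 was the lowest of 12 for 20 of the 23 genes.

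Members were also set against the B cell list within each library, as log2(CPM + 0.5) minus the median of the 23 genes, a scale chosen after the values were seen and given without a test. Fcer2a stood at 1.39 ± 0.28 in KO_Af and 0.66 ± 0.11 in KO_PBS, and at 1.55 ± 0.21 in WT_Af and -0.10 ± 0.42 in WT_PBS. On this scale its exposed and control libraries were apart in both genotypes, and KO_PBS lay above WT_PBS without overlap (0.76 higher). Ms4a1 was also apart in KO, at 1.68 ± 0.52 in KO_Af and 0.85 ± 0.05 in KO_PBS, and overlapped in WT. Cxcr5 was 0.55 higher in KO_PBS than in WT_PBS without overlap. The list median itself averaged 3.945 in KO_Af, 4.431 in KO_PBS, 3.985 in WT_Af and 3.535 in WT_PBS. A shift of that median moves every member on this scale. Cr2 stood at -1.28 ± 0.60 in KO_Af and -0.32 ± 0.13 in KO_PBS, without overlap, and at -0.78 ± 0.59 in WT_Af and -0.62 ± 0.70 in WT_PBS, with overlap. Ltb was 0.66 higher in WT_Af than in WT_PBS without overlap and 0.32 higher in KO_Af than in KO_PBS with overlap. Cd79a overlapped in each of the 4 pairs, and its KO_PBS over WT_PBS difference of 1.27 on the plain log2 scale was 0.37 here.

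**Figure D4:**
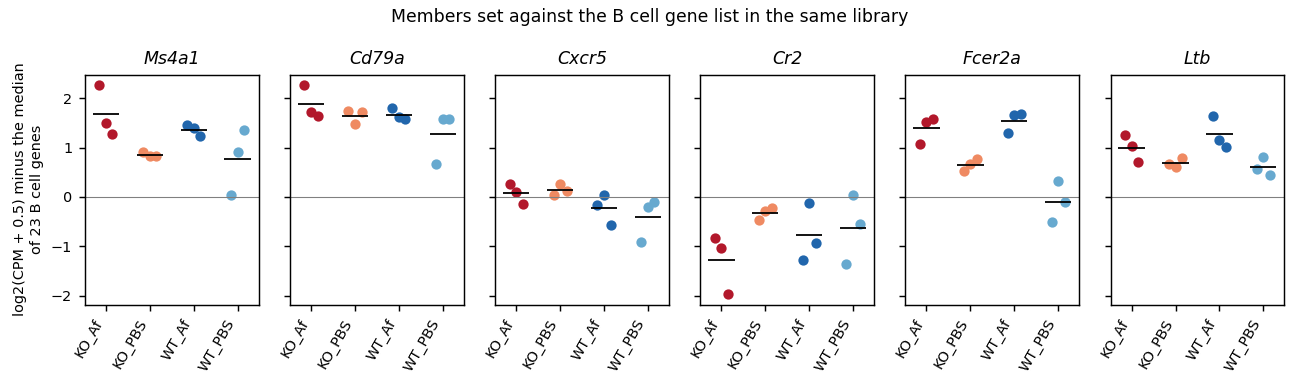
Level of 6 members in each library as log2(CPM + 0.5) minus the median of 23 B cell genes in that library, in KO_Af, KO_PBS, WT_Af and WT_PBS, with lines at the means. Fcer2a averaged 1.39 in KO_Af and 0.66 in KO_PBS, against 1.55 in WT_Af and -0.10 in WT_PBS. Ms4a1 averaged 1.68 in KO_Af and 0.85 in KO_PBS, against 1.36 in WT_Af and 0.77 in WT_PBS.

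Of 15 genes of the lymphotoxin pathway 9 rose and 1 fell under Af in KO (median log2 0.47), and 8 rose and 0 fell in WT (median 0.42). Counting both directions, these shares are near the 57.9% of all genes called in KO and the 51.8% in WT, while 28.7% of all genes were higher in KO and 26.2% in WT. Nfkb2 rose by log2 1.33 in KO and 1.46 in WT, Relb by 1.04 and 1.34, Traf2, an adaptor of the receptor, by 0.62 and 0.60, and Tnfsf14, the alternative ligand LIGHT, by 0.98 and 1.42. None of the 15 was called between genotypes under PBS (2 at an unadjusted p under 0.05) or under Af (0), and edgeR and DESeq2 called 0 in each.

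Lymphoid positioning genes, of which 9 of 10 were tested, split. In each genotype 4 rose and 2 fell. The enzymes that make oxysterol ligands for the B cell receptor EBI2 rose, Ch25h by log2 3.25 in KO and 3.07 in WT and Cyp7b1 by 2.75 and 1.97, and so did Gpr183, which encodes EBI2, by 0.59 and 1.21. Ackr4, which scavenges CCL19 and CCL21, stood at 4.84, 3.12 and 0.889 CPM in KO_Af, against 21.1, 22.8 and 25.6 CPM in KO_PBS (log2 -2.98 ± 0.37, limma adjusted p = 4.23e-05). In WT it stood at 4.27, 3.34 and 3.22 CPM in WT_Af, against 7.66, 10.7 and 9.12 CPM in WT_PBS (log2 -1.23 ± 0.37, adjusted p = 0.0153), and exposed libraries lay below control ones in both genotypes.

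Ccr7, the receptor of CCL19 and CCL21, was higher in KO_PBS than in WT_PBS (log2 1.76 ± 0.29, limma adjusted p = 0.00984), as was Cxcr4 (log2 0.78 ± 0.16, adjusted p = 0.0199). Ccr7 stood at 33.9, 53.0 and 44.0 CPM in KO_PBS, against 6.54, 18.3 and 15.6 CPM in WT_PBS, with no overlap. Under Af it rose in WT (log2 0.84, adjusted p = 0.0305) and was not called in KO (log2 -0.67, adjusted p = 0.0675). Only 1 of these 2 calls under PBS was left without WT_PBS 15, and likewise without WT_PBS 17.

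Genes of B cell survival and help rose in 7 of 12 tested in KO, with 1 lower (median log2 0.72), and in 9 of 12 in WT, with 0 lower (median 1.05), again to be read against 28.7% of all genes higher in KO and 26.2% in WT. The same shares apply to the counts of the other lists, with 29.2% of all genes lower in KO and 25.6% in WT. Il6 rose by log2 4.01 in KO and 3.73 in WT, Il5 by 2.61 and 2.56, the T cell costimulator Icos by 1.40 and 1.73, and Tnfsf13b, which encodes the survival factor BAFF, by 0.87 and 0.85. Plasma cell genes gave 5 higher and 1 lower of 8 tested in each genotype. Xbp1, the regulator of secretion, rose by log2 0.93 in KO and 0.38 in WT, and Derl3 and Fkbp11, of the secretory pathway, by 1.88 and 1.61 in KO and 1.03 and 1.29 in WT. Prdm1, which drives plasma cell formation and is also expressed by T cells and other cells, fell in KO (log2 -1.21) and stood at -0.40 in WT, where it was not called. Of 6 tested germinal centre genes 3 rose in KO (Mybl1, Fas and Gcsam) and 1 in WT (Mybl1, log2 1.12, against 1.10 in KO), and Fas is expressed widely.

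Stromal and vessel genes were mixed. The median log2 change was 0.58 in KO and -0.05 in WT for genes of follicle stroma and high endothelial venules. For lymphatic markers it was -0.35 in KO and -0.73 in WT. Of 10 tested genes of follicle stroma and high endothelial venules 5 rose and 1 fell in KO, and 4 rose and 2 fell in WT, with the adhesion molecules Icam1 (log2 0.67 in KO and 0.73 in WT) and Vcam1 (0.67 and 0.58) and Tnfsf11, the cytokine RANKL (1.63 and 1.13), among the higher ones and Mfge8, a bridging protein made by follicular dendritic cells among others, lower (-0.65 and -0.59). Lymphatic vessels are another source of CCL21, and 3 of 7 lymphatic markers fell in KO and 4 in WT, with Flt4 at log2 -1.17 in KO and -0.85 in WT and Prox1 at -0.62 and -0.81. Their summed level was 266.1 to 631.4 CPM in KO_Af, 401.9 to 441.0 CPM in KO_PBS, 339.7 to 560.0 CPM in WT_Af and 582.5 to 663.3 CPM in WT_PBS. In KO_Af and WT_Af the sum was lowest in KO_Af 12 and WT_Af 18, the libraries of those groups with the highest Ccl21a. In KO_PBS and WT_PBS the sum and Ccl21a were lowest in the same libraries, KO_PBS 10 and WT_PBS 17. Prox1 was at 0 in none of the libraries, and the part of lymphatic vessels in the Ccl21a difference was not tested.

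Markers of other cell types also moved with exposure. T cell markers rose in 9 of 13 in WT (median log2 1.24), a count of 3 without WT_PBS 15, and in KO 1 rose and 1 fell (median -0.18). Macrophage markers gave 9 higher and 2 lower of 11 in each genotype, with C1qb up by log2 2.54 in KO and 1.64 in WT. Dendritic cell markers gave 6 higher and 1 lower of 9 in each, with Ccl22 up by 3.02 in KO and 3.01 in WT. Fibroblast markers gave 3 higher and 3 lower of 8 in KO and 2 higher and 4 lower in WT, and lung epithelium markers 4 lower of 7 in KO and 5 in WT. Over the 13 lists together, 138 tested genes, 15 were called between genotypes under PBS and 0 under Af (9 at an unadjusted p under 0.05, and 0 by edgeR and by DESeq2).

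Members varied together within groups to different degrees. Over the 12 libraries, with each group's mean subtracted from log2(CPM + 0.5), Pearson's r was 0.98 between Ms4a1 and Cd79a, 0.93 between Ms4a1 and Cxcr5, 0.68 between Ms4a1 and Fcer2a and -0.14 between Ms4a1 and Ccl21a. Without WT_PBS 15 these were 0.88, 0.64, -0.68 and 0.34, so the relation of Ms4a1 to Fcer2a rested on that library. These values share libraries and are descriptions. By the same measure, the genes most like Ms4a1 were Faim2 (0.96), Cd37 (0.96), Cd79b (0.96), Srpk3 (0.95) and Prom2 (0.95). Those most like Cxcl13 were Timd4 (0.96), Wnt2b (0.95), Cadm4 (0.94), Ccl11 (0.94) and Tnfrsf13c (0.94), and those most like Ccl21a were Ttc30a1 (0.96), Cetn4 (0.95), Serpinb9b (0.93), Polr2j (0.93) and Sox2 (0.91). These genes were picked for the highest r over all 12 libraries, WT_PBS 15 included. Without WT_PBS 15 the r of Cxcl13 went from 0.88 to 0.42 with Ms4a1, from 0.85 to 0.16 with Cd79a and from 0.85 to 0.30 with Cxcr5.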

How the data were processed

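Per the labels' protocols, lung RNA was extracted with a Qiagen kit and TruSeq mRNA libraries were made. Per the submitters' processing notes, the tools were cutadapt 1.18, STAR 2.7.6a and RSEM 1.3.0 and the builds GRCm38 and GRCh38, with no role stated for each. The authors deposited a signal per gene and library, RSEM CPM adjusted by TMM on a linear scale, per the file headers and the table's name. The design had foreseen a CPM column, and because the TMM adjustment changes the column sums the unit was taken as a scaled signal, with the same test. In each library 100% of values were whole multiples of 1 read (tolerance 0.01), so read counts were recovered by division.

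The 16126 genes that reached 1 CPM in 3 or more libraries were tested on log2(CPM + 0.5), which understates changes of low genes, with limma 3.58.1 (trend) in R 4.3.3, 1 fit of 4 groups, and Benjamini-Hochberg adjustment over all of them. edgeR 4.0.16 (quasi-likelihood) and DESeq2 1.42.0 were run on the recovered counts. Other alternatives were pseudocounts of 0.1 and 1, other filters, rescaling, no trend, leaving out each library in turn, array weights and fitting only the groups compared. Fits without WT_PBS 15 and 16, and without WT_PBS 17 and KO_Af 12, were chosen after seeing the data. The test was tried on counts simulated from the WT_PBS means, with the same spread setting for every gene and no outlying library. That setting is simpler than these data, so it does not cover the spread among the WT_PBS libraries. Depth was 20708884 to 30229446 reads per library, so 3 reads, the limit that a count of 0 allows, correspond to 0.0983 to 0.144 CPM, for counting error only.

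Coordinates and exon lengths are from GENCODE M21 (GRCm38), matched by identifier for 99.5% of genes. Overlapping genes and the near-identical Ccl21 copies are uncertain. The members and the 13 gene lists (138 tested genes) were chosen with earlier results of these data known. Named genes were all members, up to 4 genes per list with the smallest p for Af, up to 2 with the smallest p for genotype, Rgs4, and the 5 genes most correlated with each of Ms4a1, Cxcl13 and Ccl21a, without Gm and Rik names or antigen receptor segments. Glycam1 and the germinal centre genes of WT_PBS 16 were named after their values were seen.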

Additional observations from a re-analysis of the deposited data

How the results depend on the processing

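Of 1116 member values over all comparisons and alternatives, 1032 kept their direction and their side of the threshold, 20 lost a call, 27 gained one and 37 changed sign, all of them uncalled both ways. Members called for Af in KO (2) were 4 with array weights, 4 with the compared groups alone, 1 with no filter and 1 to 3 with 1 library left out. For Af in WT (4) they were 2 without WT_PBS 15 and 16, 3 with no filter, no trend or the compared groups alone, 6 without WT_PBS 17 and KO_Af 12, and 3 to 6 with 1 library left out. For KO against WT under PBS (1) they were 4 with array weights, 3 with DESeq2, 0 with no filter or the compared groups alone, 2 without WT_PBS 15 and 16, 2 without WT_PBS 17 and KO_Af 12, and 0 to 2 with 1 library left out. Under Af (0) array weights gave 1, Cr2. Averaged over exposures (0), the fit without WT_PBS 17 and KO_Af 12 gave 1, Ccl21a. For the interaction (0) array weights gave 3 and DESeq2 gave 1. Array weights called more of all genes too, about 11620 for Af in KO (9331 in the main fit) and 2204 under Af (14). For the interaction (1) array weights called 1602 of all genes and DESeq2 called 362. In the 23 B cell genes, calls for KO against WT under PBS (7) were 14 with array weights, 12 with DESeq2, 4 with the compared groups alone and 3 with no filter. Calls for Af in WT (14) were 8 with the compared groups alone. Over all genes, calls for KO against WT under PBS (573) were 2646 with array weights and 1216 with DESeq2. They were 1124 with the compared groups alone and 373 with no filter. For Af in WT (8361) they were 9098 with the compared groups alone. The log2 values that changed sign were as follows. With array weights they were -0.072 for Ms4a1 under Af in KO, -0.20 for Ccl19 under Af in WT, -0.45 for Cr2 in KO against WT averaged over exposures, and for KO against WT under Af -0.14 for Ms4a1, -0.071 for Cd79a, -0.16 for Cxcl13 and -0.099 for Cxcr5. Ccl19 under Af in WT was -0.35 with edgeR and -0.37 with DESeq2. Without WT_PBS 15 and 16 Cr2 under Af in WT was -0.089, Ccl21a in KO against WT was 0.36 under PBS and 0.12 averaged, and the interaction was 0.19 for Ms4a1, -0.42 for Ccl19 and -0.48 for Ccl21a. Without WT_PBS 17 and KO_Af 12 Ccl19 under Af in WT was -0.15, KO against WT under Af was -0.0024 for Ms4a1 and -0.013 for Cd79a, and the averaged difference of Cxcl13 was 0.029. With 1 library left out, Ltb under Af in KO ran from -0.28 to 0.0058, and under Af in WT Cr2 ran from -0.42 to 0.81 and Ccl19 from -0.43 to 1.23. In KO against WT under PBS Ccl19 ran from -1.47 to 0.19. In KO against WT under Af Ms4a1 ran from -0.0024 to 0.51, Cd79a from -0.013 to 0.31, Ccl19 from -1.04 to 0.0090 and Ccl21a from -0.37 to 0.018. The averaged difference ran from -0.029 to 0.59 for Cr2 and from -0.82 to 0.051 for Cxcl13, and the interaction from -1.14 to 0.014 for Ms4a1, from -0.69 to 0.96 for Ccl19 and from -0.013 to 0.60 for Ccl21a. For all of these the cause was not tested. Over these alternatives the adjusted p of Cxcl13 was 1.36e-05 to 0.00632 for Af in KO and 0.00147 to 0.182 for Af in WT, and that of Cr2 for Af in KO was 0.000842 to 0.137. For Af in WT it was 1.31e-07 to 0.00642 for Fcer2a, 0.000916 to 0.0345 for Ltb and 9.3e-05 to 0.939 for Ccl21a, and for KO against WT under PBS 0.000878 to 0.124 for Fcer2a, each from limma except where edgeR or DESeq2 was the alternative. No paired analysis was possible because library numbers are unique to each library. Between 2 groups the standard errors of the members ran from 0.28 (Ccl21a) to 0.72 (Ccl19) on the log2 scale, which limits the size of difference that 3 libraries a group can show. For Ccl19, at 7 to 170 reads per library, depth limits the value as well.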

Other observations

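A few low genes of germinal centres and the venule gene Glycam1 were higher in WT_PBS 16 than in the other WT_PBS libraries. Glycam1, which encodes a ligand of L-selectin on high endothelial venules, was at 102.8 CPM there, against 0 CPM in WT_PBS 15 and 3.78 CPM in WT_PBS 17. Mef2b was at 2.26 CPM in WT_PBS 16, against 0.166 and 0 CPM in WT_PBS 15 and 17. For Rgs13 the levels were 0.868 CPM in WT_PBS 16, against 0 and 0.189 CPM, and for Nuggc 0.911 CPM, against 0.124 and 0.189 CPM. Its Ccl19 and Ccl21a levels were the highest of the 12 libraries, at 7.38 and 136.5 CPM, while its Ms4a1 level of 28.1 CPM lay below that of WT_PBS 17. The summed level of all 9 germinal centre genes was 178.0 CPM in WT_PBS 16, against 177.9 CPM in WT_PBS 15 and 154.5 CPM in WT_PBS 17. A sum of that size cannot register genes as low as Mef2b, Rgs13 and Nuggc, so it does not decide whether the list sets WT_PBS 16 apart. Glycam1, Mef2b, Rgs13 and Nuggc were singled out after their values were seen, and no test was made.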
